A study of Mus musculus with 3 samples.

Results

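The clustered protocadherins are cell surface proteins of the cadherin superfamily whose genes lie side by side in 3 arrays, alpha, beta and gamma. Members were all protein-coding mouse genes whose symbol begins with Pcdha, Pcdhb or Pcdhg, which gave 57 of the 18121 protein-coding genes with a coding row in the deposited table. There were 14 alpha, 22 beta and 21 gamma genes. All lie on the plus strand of chromosome 18 of the mm10 build, in the order alpha (bases 36930285 to 37187657), beta (37264938 to 37524479) and gamma (37661793 to 37841873). Their levels were read in 3 RNA-seq libraries of cortical neurons from Swiss-Webster mice, an outbred stock, taken at embryonic day 16. The neurons were wild type and had no treatment; the culture protocol also tells of etoposide, but no library's treatment label does. They were grown on poly-D-lysine in neurobasal medium with B27, with 5 M cells on each 10 cm plate. No other group was analysed here, so each comparison is between members inside the same libraries.

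Each alpha and gamma gene has its own promoter and a large variable exon of its own, which encodes the extracellular domain, the membrane span and a first stretch of the cytoplasmic tail. That exon is spliced to a short run of constant exons shared by all genes of the array, which encode the common end of the tail. Beta genes have a single coding exon and no constant exons. Neurons each use a subset of the alternate members, chosen promoter by promoter with the help of CTCF and cohesin, while the C-type members at the end of the alpha and gamma arrays are used more widely. Proteins of matching sets bind each other between cell surfaces, and this binding is known for self-avoidance of neurites and for the survival and wiring of neurons. The C-type genes are Pcdhac1, Pcdhac2, Pcdhgc3, Pcdhgc4 and Pcdhgc5. The other 12 alpha genes and the 12 gamma A and 6 gamma B genes are the alternates.

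Values are TPM, transcripts per 1000000: the reads of a transcript row divided by its length and scaled so that all rows of a library sum to 1000000. A gene's value is the row of its longest protein-coding transcript. The values allowed whole reads per row to be recovered. Summed over each gene's fullest row, they came to 26.7, 23.6 and 23.2 M in libraries 1, 2 and 3, with reads that genes share counted more than once. A row of 2 kb at 1 TPM held 103, 86.5 and 91.4 reads. The labels name no separate cultures or animals, so the spread between libraries may be technical. Differences were tested over the 3 libraries by an exact permutation of signs, two-sided, whose smallest possible p is 0.25.

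The cells carried the markers of neurons: all 7 neuron markers were above 1 TPM, between 22.6 TPM for Rbfox3 and 687 TPM for Stmn2. All 5 glutamatergic and all 5 GABAergic markers were detected as well, and so were all 6 astrocyte markers and 5 of 6 markers of the oligodendrocyte lineage. Of the microglial, endothelial and mural, and fibroblast lists, 1 of 5, 1 of 5 and 1 of 4 genes reached 1 TPM. The microglial gene that reached it was Aif1 at 1.03 TPM, and the other 4 lay between 0 for Tmem119 and 0.113 TPM for P2ry12. In such mixed bulk cultures, fewer cells that use a gene and less RNA per cell cannot be told apart.

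As deposited, the alpha and gamma rows were high and almost level, whereas the beta rows were low and spread out. A mean of at least 1 TPM, called detected here, was reached by 51 of the 57 members, against a background of 61.5% of all protein-coding genes. These were all 14 alpha genes, 16 of 22 beta genes and all 21 gamma genes. A mean of at least 10 TPM was reached by 35 members, all of them alpha or gamma, against 26.4% of all protein-coding genes. The alpha rows ran from 52.4 TPM for Pcdhac1 to 60.1 TPM for Pcdhac2. The gamma rows ran from 67.7 TPM for Pcdhga12 to 86.6 TPM for Pcdhgc3, and the beta rows from 0.330 TPM for Pcdhb1 to 5.74 TPM for Pcdhb9. On the log2(TPM + 1) scale the median row was 6.21 ± 0.07 in gamma, 5.79 ± 0.15 in alpha and 1.65 ± 0.05 in beta (SD, n = 3). Gamma minus beta was 4.59 ± 0.02, alpha minus beta 4.17 ± 0.10 and gamma minus alpha 0.42 ± 0.08, each above 0 in 3 of 3 libraries (exact sign-flip permutation p = 0.25 each, the smallest possible).

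Every alpha row and every gamma row holds the reads of its array's shared exons, and these made up most of each row. For some genes the deposited rows include a single exon that covers at least 95% of the variable exon. Those used reach from 221 bases (Pcdhgb2) to 2063 bases (Pcdhgb5) beyond it, and reads there are taken off too. The long row less the single-exon row gives an estimate of the shared reads. In the alpha array 2 such pairs, Pcdha4 and Pcdha11, gave 13677 and 13681 shared reads in library 1, 13792 and 13795 in library 2, and 12086 and 12088 in library 3. Pcdha4 and Pcdha11 themselves differ in level, yet their estimates lay within 4 reads. In the gamma array 5 pairs gave 16747 to 16831, 15125 to 15189 and 14480 to 14527 shared reads in libraries 1, 2 and 3. The lowest value in each library came from Pcdhgc3. The shared part is 2860 bases long in alpha and 2119 bases in gamma.

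The reads left after the shared part are taken as those of the gene's own variable exon. They were a small share of most rows. Among alpha alternates they made up between 0.102% of the row for Pcdha8 and 4.44% for Pcdha3, averaged over libraries. Among gamma alternates they made up 1.50% for Pcdhga9 to 5.96% for Pcdhga3. The largest shares were those of Pcdhac2 with 19.9%, Pcdhgc3 with 18.2% and Pcdhgc4 with 9.24%. Unless whole rows are named, levels below are those of the variable exon, scaled by its own length to TPM, and those of the whole row for beta genes, so that members of all arrays can be set side by side.

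**Figure D1:**
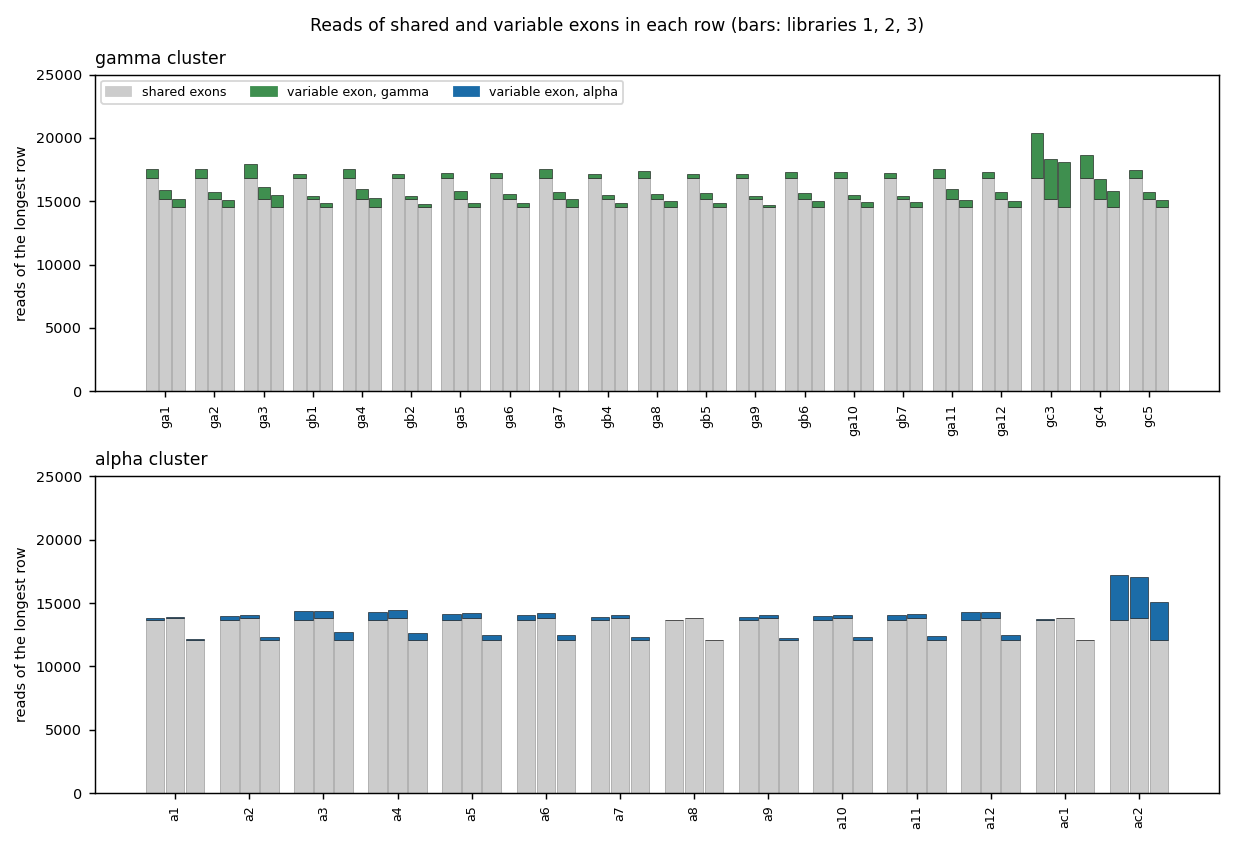
Reads of the longest coding row of each gamma member (top) and alpha member (bottom), in 3 bars for libraries 1, 2 and 3. Grey is the estimated part shared by the whole array and colour the reads left for the member's own variable exon. The coloured part is tall only for Pcdhgc3, Pcdhgc4 and Pcdhac2.

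**Figure D2:**
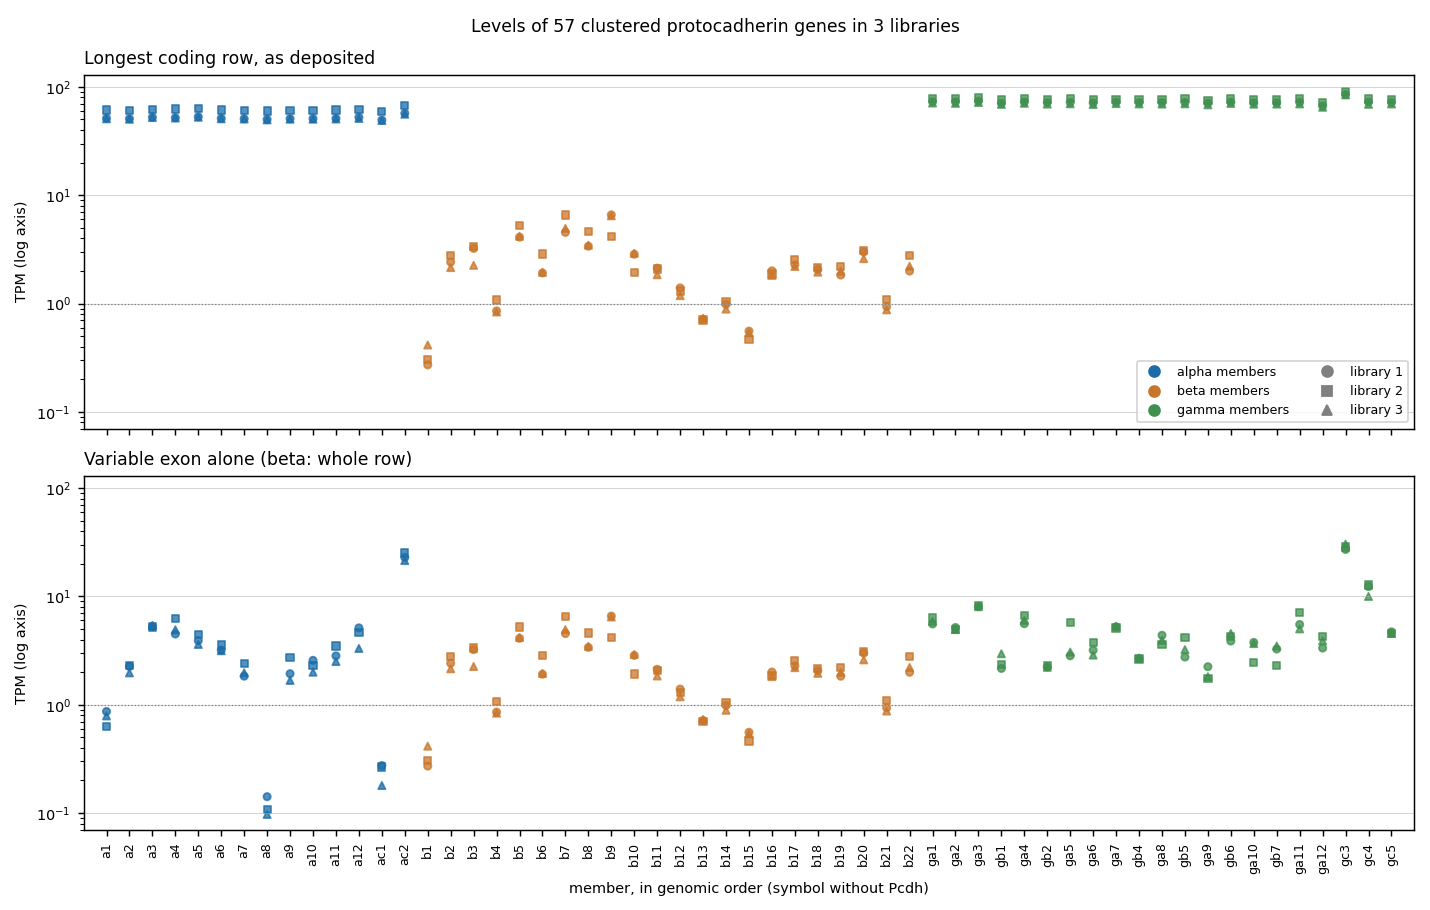
TPM on a log axis of the 57 members in genomic order, for the deposited longest coding row (top) and for the variable exon alone (bottom). Colour gives the array, symbol shape the library, and the dotted line 1 TPM. The alpha and gamma rows are level at the top and spread over about the same range as beta genes at the bottom, with Pcdhac2, Pcdhgc3 and Pcdhgc4 above the rest.

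Measured on variable exons, 48 of the 57 members were detected, against the same 61.5% of protein-coding genes by whole rows. They were 11 alpha, 16 beta and 21 gamma genes. A mean of at least 10 TPM was reached by 3 members, all C-type: Pcdhgc3, Pcdhac2 and Pcdhgc4. These 3 stood above every other member in each library.

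The C-type genes split into high and low. Pcdhgc3, whose protein promotes dendrite branching in mouse cortical neurons and binds the Wnt inhibitor Axin1, had 27.1, 28.5 and 30.4 TPM in libraries 1, 2 and 3. Pcdhac2, which serotonergic axons of the mouse need in order to spread over their targets, had 22.9, 25.2 and 21.4 TPM. Pcdhgc4, which mouse cortical interneurons need for survival, had 12.3, 12.7 and 9.99 TPM. The 3 ranges do not overlap each other. The serotonergic markers Tph2, Slc6a4 and Fev were all below 1 TPM in these libraries.

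Pcdhgc5, a C-type gene known for late onset in the rodent forebrain, lay among the alternates with 4.71, 4.57 and 4.55 TPM. Pcdhac1 was close to silent at 0.274, 0.267 and 0.180 TPM, from 36, 29.5 and 21 reads. A fraction of a read comes from taking the shared reads as the middle of 2 alpha pairs. Pcdhac1 and Pcdhgc3 thus mark the ends of the C-type range, and the ranges of the 5 C-type genes over the libraries do not overlap.

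Set against the median alternate of the same array and library, Pcdhgc3 was higher by 2.62 ± 0.11 on the log2(TPM + 1) scale, Pcdhac2 by 2.72 ± 0.06 and Pcdhgc4 by 1.38 ± 0.17 (SD, n = 3). Pcdhgc5 was higher by 0.21 ± 0.12, and Pcdhac1 stood at -1.56 ± 0.12, below the median alternate in 3 of 3 libraries and at -3.03 with a pseudocount of 0.1. Each of these differences had the same sign in all libraries (exact sign-flip permutation p = 0.25 each, the smallest possible). By the longest rows, C-type minus alternates was 0.047 ± 0.005 in alpha (p = 0.25 by the exact permutation) and 0.006 ± 0.007 in gamma (p = 0.5 by the exact permutation, above 0 in 2 of 3 libraries). In gamma it became 0.87 with each gene's highest row and 1.63 with all rows of a gene summed, above 0 in 3 of 3 libraries each, and in alpha it became 0.0046 with rows summed. These settings take in shorter rows that hold shared exons, so they do not measure variable exons. One such row, of Pcdhgc4, averaged 147 TPM with only 85, 80 and 74 reads beyond the shared ones. On variable exons the same differences of medians were 0.58 ± 0.09 in alpha, where the 2 C-type genes lie on either side of the alternates, and 1.38 ± 0.17 in gamma (exact permutation p = 0.25 each). The alpha value depended on the setting: it was 0.025 ± 0.079 with a pseudocount of 0.1 (exact permutation p = 0.5, above 0 in 2 of 3 libraries), 0.18 with scaling to nuclear protein-coding genes, and 2.55 when members below 1 TPM, Pcdhac1 among them, were left out.

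As a share of the summed variable exons of the array, Pcdhac2 alone made up 40.0% ± 0.4 of alpha. Pcdhgc3 made up 24.0% ± 1.4 of gamma and Pcdhgc4 9.78% ± 1.18 (SD, n = 3 each). The C-type genes together made up 40.4% ± 0.4 of alpha and 37.7% ± 0.5 of gamma. The alternates made up 59.6% ± 0.4 of alpha, and in gamma the A genes made up 47.2% ± 1.2 and the B genes 15.1% ± 0.9.

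In library 3 Pcdhgc3 was highest and Pcdhgc4 lowest, though Pcdhgc3 rose in similar steps, with 27.1, 28.5 and 30.4 TPM in libraries 1, 2 and 3. The 5 GABAergic markers summed to 186 TPM in library 3, against 272 and 282 TPM in libraries 1 and 2. Of them Dlx1 alone was not lowest in library 3, at 7.44 TPM, against 7.15 and 6.19 TPM in libraries 1 and 2. The 6 astrocyte markers summed to 862 TPM in library 3, against 632 and 642 TPM in libraries 1 and 2. Most of that rise was Apoe, at 550 TPM in library 3, against 365 and 344 TPM in libraries 1 and 2. Gfap, Aqp4 and Slc1a3 were also highest in library 3, whereas Slc1a2 lay between the other libraries and Aldh1l1 was lowest. The part of either cell type in these levels was not tested.

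The 12 alpha alternates ran from near 0 to just above 5 TPM. The highest was Pcdha3 with 5.26, 5.21 and 5.39 TPM, and Pcdha4 followed with 4.50, 6.21 and 4.92 TPM. Pcdha5 had 3.91, 4.43 and 3.60 TPM, although its whole row was the highest of the alternates at 56.3 TPM. Pcdha3 was even across libraries, with a coefficient of variation (CV, the SD as a percent of the mean) of 1.82%, whereas Pcdha4 was highest in library 2.

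Of the 2 alternates with the lowest whole rows, Pcdha2 had 2.26, 2.30 and 1.97 TPM in its variable exon, by its mean above Pcdha9, Pcdha7 and Pcdha1, and Pcdha8 had 0.142, 0.107 and 0.0972 TPM. Pcdha8 rested on 18, 11.5 and 11 reads, with exact 95% Poisson intervals, which cover counting error only, of 10.7 to 28.4, 5.84 to 20.3 and 5.49 to 19.7 reads. Its whole row still read 53.2 ± 5.8 TPM (SD, n = 3), the lowest of the alternates but above all 22 beta genes. Pcdha1, the first gene of the array, was also below 1 TPM at 0.866, 0.625 and 0.788 TPM, and is named after its values were seen. The other 6 alpha alternates averaged between 2.07 TPM for Pcdha7 and 4.36 TPM for Pcdha12.

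The 22 beta genes, which encode full ectodomains with a short private tail, kept their deposited values. Pcdhb9 led with 6.58, 4.17 and 6.46 TPM, followed by Pcdhb7 with 4.54, 6.57 and 4.94 TPM and Pcdhb5 with 4.10, 5.23 and 4.18 TPM. Pcdhb9 was first in libraries 1 and 3, and in library 2 it lay below Pcdhb7, Pcdhb5 and Pcdhb8, the last at 4.60 TPM there. Pcdhb15 had 0.557, 0.462 and 0.539 TPM. Pcdhb1, which lies at the alpha end of the array, was lowest with 0.271, 0.304 and 0.414 TPM from 36, 34 and 49 reads.

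The 6 beta genes below a mean of 1 TPM were Pcdhb1, Pcdhb15, Pcdhb13, Pcdhb4, Pcdhb21 and Pcdhb14, and the last 3 lay just under the limit at 0.923, 0.966 and 0.972 TPM. Annotated beta exons differ in length from 2588 to 8695 bases, and TPM divides by that length. Pcdhb14, with the longest exon, held 438, 393 and 353 reads, more than the 348, 338 and 276 reads of Pcdhb2, which averaged 2.45 TPM on 2813 bases. Pcdhb21 and Pcdhb22 overlap by 455 bases, so reads there belong to both rows.

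All 12 gamma A alternates were detected. Pcdhga3 had 8.05, 8.19 and 8.04 TPM, and its CV of 1.06% was among the lowest of the members. Pcdhga4 had 5.60, 6.65 and 6.01 TPM and Pcdhga1 5.57, 6.33 and 5.90 TPM, with overlapping ranges. Pcdhga9 was the lowest with 2.24, 1.75 and 1.81 TPM. Pcdhga12, whose whole row was the lowest of gamma at 67.7 TPM, had 3.33, 4.24 and 3.89 TPM in its variable exon, which with 2961 bases is the longest of gamma A.

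The 6 gamma B genes lay in a narrower band. Pcdhgb6 had 3.87, 4.26 and 4.55 TPM, Pcdhgb5 2.75, 4.18 and 3.23 TPM, and Pcdhgb4 2.67, 2.64 and 2.70 TPM. At the lower end by whole rows, Pcdhgb7 had 3.26, 2.29 and 3.48 TPM and Pcdhgb1 2.16, 2.36 and 2.96 TPM. The lowest variable exon was that of Pcdhgb2 with a mean of 2.25 TPM. The ranges over libraries of Pcdhgb7, Pcdhgb4 and Pcdhgb1 overlap, so their order is not fixed by these data.

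Over members' means, the median on the log2(TPM + 1) scale was 2.45 ± 0.08 in gamma A and 1.94 ± 0.11 in gamma B. Taken in each library and then averaged, the gamma A median was above the gamma B median by 0.61 ± 0.19 (SD, n = 3; exact permutation p = 0.25, above 0 in 3 of 3 libraries). By whole rows gamma A minus gamma B was 0.007 ± 0.004, and it became -0.03 when all rows of a gene were summed.

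The arrays lay close together on variable exons. Gamma alternates minus alpha alternates was 0.40 ± 0.14, gamma alternates minus beta 0.66 ± 0.07 and alpha alternates minus beta 0.26 ± 0.12 (log2 scale, SD, n = 3). Each was above 0 in 3 of 3 libraries (exact permutation p = 0.25 each, the smallest possible). Without members below 1 TPM, gamma alternates minus alpha alternates became 0.24. With all members, gamma minus alpha was 0.46 ± 0.13, but it became -0.18 ± 0.29 (exact permutation p = 0.5, above 0 in 1 of 3 libraries) when the smallest row of each array was taken as its shared part, and gamma minus beta became 0.06 ± 0.27 (exact permutation p = 1, above 0 in 2 of 3 libraries). That setting removes the smallest member's own reads from every gamma gene, since the smallest gamma rows, Pcdhgb1 in library 1 and Pcdhga9 in libraries 2 and 3, held 289, 197 and 216 reads of their own.

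Summed over each array, the variable exons came to 119 ± 4 TPM in gamma, 58.0 ± 5.2 TPM in alpha and 50.9 ± 3.0 TPM in beta (SD, n = 3 each). The shared exons, which every member of the array has, stood at 157 ± 8 TPM in gamma and 99.1 ± 10.8 TPM in alpha. Shared over summed variable exons was thus 1.31 ± 0.04 in gamma and 1.71 ± 0.08 in alpha, above 1 in every library. The variable exon comes first in each row and the shared exons follow, and evenness of coverage between them was not tested. Pcdhgb8, no member, overlaps member exons and averaged 2.75 TPM in its variable exon, which the gamma sum leaves out. Among annotated genes that are no members, Gm38182, Gm37013, Gm37388 and Gm42416 overlap member exons on the plus strand. Their rows averaged 144, 78.2, 56.7 and 31.8 TPM and may hold some of the same reads. Their part in the shared level was not tested. In alpha, library 2 was highest on both counts: its shared exons had 112 TPM, against 93.3 and 92.5 TPM in libraries 1 and 3, and its variable exons 63.4 TPM, against 57.6 and 53.0 TPM in libraries 1 and 3.

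**Figure D3:**
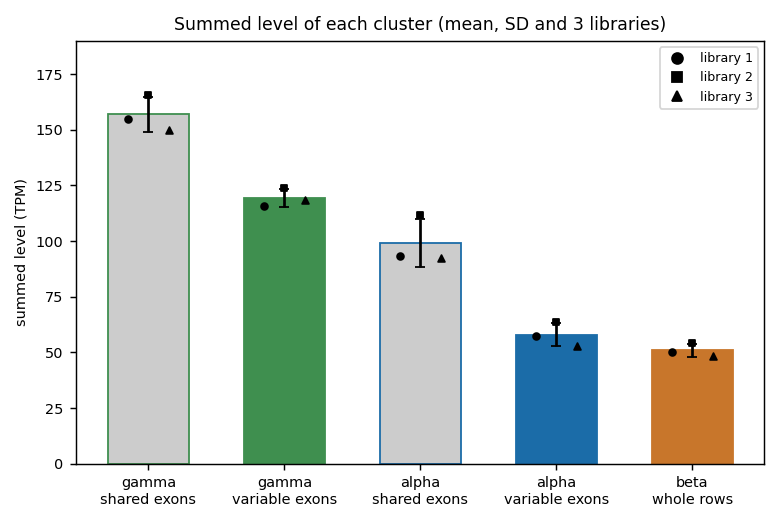
Summed level in TPM of the shared exons (grey) and of the variable exons (green gamma, blue alpha), and of the beta rows (orange). Bars are means, error bars SD, and points the 3 libraries. Shared exons exceed the summed variable exons in both arrays, 157 against 119 TPM in gamma and 99.1 against 58.0 TPM in alpha.

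Members varied between libraries by different amounts. Of the 45 members with a mean of 1 to 10 TPM, 11 had a CV of at least 20%. The background, by whole rows, was 7.26% of 6364 protein-coding genes in that range. The 11 were Pcdha9, Pcdha12, Pcdhb3, Pcdhb6, Pcdhb7, Pcdhb9, Pcdhb10, Pcdhga5, Pcdhgb5, Pcdhga10 and Pcdhgb7. The median CV was 12.5% for the 45 members and 8.57% for all genes of that range by whole rows. Members had a median of 481 reads a library in variable exons or beta rows, and all such genes 625 in whole rows. The part of this difference in depth was not tested.

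In library 2, 10 of the 45 members were at least 1.3-fold above the mean of libraries 1 and 3, against a background of 3.13% of such genes. Another 4 were at least 1.3-fold below it, against 3.32%. Both background values are by whole rows. This comparison was chosen after the values were seen. Above were Pcdha4, Pcdha9, Pcdha11, Pcdhb6, Pcdhb7, Pcdhb8, Pcdhb22, Pcdhga5, Pcdhgb5 and Pcdhga11, from all 3 arrays, and below were Pcdhb9, Pcdhb10, Pcdhga10 and Pcdhgb7. The 6 markers of the oligodendrocyte lineage summed to 48.4 TPM in library 2, against 64.7 and 81.0 TPM in libraries 1 and 3. Pdgfra had 4.94 TPM in library 2, against 11.5 and 18.4 TPM in libraries 1 and 3. Olig1, Olig2 and Cspg4 were also lowest in library 2, whereas Mbp and Mog were lowest in library 3. The GABAergic markers Gad1, Gad2 and Slc32a1 were highest in library 2, at 107, 34.2 and 25.5 TPM. Dlx1 was lowest there, and Sst lay between the other libraries. The part of either lineage in these levels was not tested.

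Pcdhga5 moved most, with 5.75 TPM in library 2, against 2.83 and 3.06 TPM in libraries 1 and 3. These levels came from 633 reads in library 2, against 369 and 356 reads in libraries 1 and 3, where 1 TPM stood for more reads. Its deposited whole row had a CV of 6.13%. Pcdhgb5, farther along the array, had 4.18 TPM in library 2, against 2.75 and 3.23 TPM in libraries 1 and 3, while Pcdhga10 had 2.46 TPM in library 2, against 3.76 and 3.67 TPM in libraries 1 and 3. Neighbours of Pcdhga5 moved less: Pcdhga6 in library 2 was 1.23-fold the mean of libraries 1 and 3, and Pcdhga7 was 0.970-fold.

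By whole rows, the 3 most variable detected members were beta genes. Pcdhb6 had 2.87 TPM in library 2, against 1.91 and 1.94 TPM in libraries 1 and 3. Pcdhb9 had 551 reads in library 2, against 1031 and 901 reads in libraries 1 and 3, and Pcdhb10 had 237 reads there, against 417 and 379 reads in libraries 1 and 3. In both of these the values of libraries 1 and 3 lay close together and library 2 stood below them. Of the C-type genes above 10 TPM, Pcdhgc3 had a CV of 5.71%, Pcdhac2 8.13% and Pcdhgc4 12.7%, the last with library 3 lowest.

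**Figure D4:**
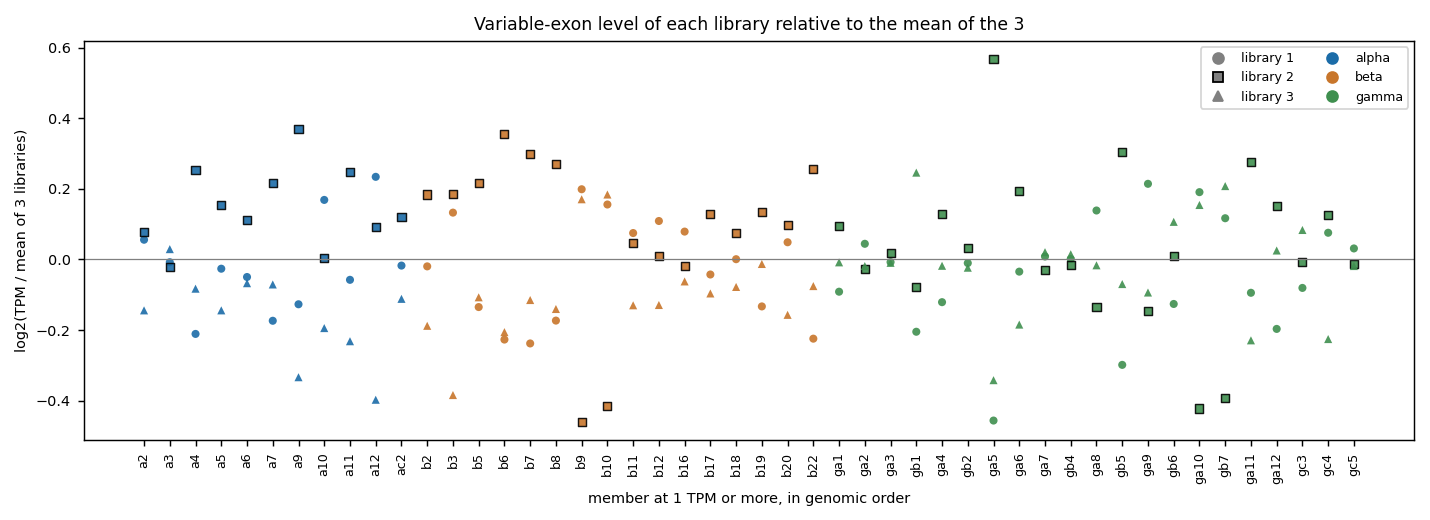
Level of each library relative to the mean of the 3, as log2 of the TPM ratio, for the 48 members with a variable exon at 1 TPM or more, in genomic order. Squares with a black edge are library 2. They lie highest for Pcdhga5 and lowest for Pcdhb9, Pcdhb10, Pcdhga10 and Pcdhgb7, while Pcdha3, Pcdhga3 and Pcdhgc5 stay near 0 in all libraries.

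Position in the array went with level only loosely. Spearman's rho of level with genomic order was 0 over the 12 alpha alternates, -0.19 over the 22 beta genes and -0.28 over the 18 gamma alternates. Within gamma it was -0.53 over the 12 A genes and 0.77 over the 6 B genes. The value of the B genes varied by library, at 0.94, 0.086 and 0.77 in libraries 1, 2 and 3, and no difference between A and B was tested. These are descriptions over genes that share libraries and, in part, sequence.

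The variable exons of the types differ in how alike they are. C-type exons were the most distinct. All of their 50-base words were unique, which means absent from every annotated transcript that does not overlap the exon. The most alike other member reached only 58.4% to 60.6% identity at the nucleotide level. Alpha alternates were the most alike, with a median of 76.8% identity among themselves and 73.4% to 89.8% unique words. Beta genes, taken over whole rows, had a median identity of 69.7% among themselves, with 88.0% to 100% unique words. Unique words came to 95.7% to 100% in gamma A and 82.1% to 97.3% in gamma B. How reads that map to several places were counted is not given in the sources used here, so levels of the least unique members are less certain. Pcdha8, the lowest, had 81.2% unique words, inside the alpha range, and was 83.9% identical to Pcdha7, its most alike member, which averaged 2.07 TPM.

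DNA methylation at CpG sites is known to silence the promoters of these genes. Promoters were not measured here, but the types differ in the CpG content of their exons. The observed over expected CpG ratio was taken over the variable exon, and over the whole row for beta genes, so the parts are unlike. Its median was 0.68 in alpha alternates, 0.69 in gamma B, 0.51 in C-type genes, 0.47 in gamma A and 0.39 in beta genes. Over all 57 members the level had a Spearman rho of 0.16 with this ratio, 0.23 with the share of unique words and -0.16 with exon length, given as descriptions only.

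Of 24 chromatin regulators, which include loop factors, silencers, methyltransferases and the demethylating Tet enzymes, 22 were detected, with a median of 8.30 TPM, against 61.5% detected over all protein-coding genes. The insulator protein Ctcf had 13.0, 14.1 and 14.1 TPM and the cohesin subunit Rad21 32.0, 33.6 and 36.9 TPM. Smchd1, which keeps the arrays methylated in the mouse, had 5.07, 5.70 and 6.23 TPM. The methyltransferase Dnmt3b, which sets methylation of their promoters in the mouse embryo, had 0.104, 0.112 and 0.0963 TPM, whereas Dnmt3a had 21.7 ± 3.3 TPM (SD, n = 3). The neuronal gene silencer Rest was the other regulator below 1 TPM, at 0.732 ± 0.039 TPM.

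Of 26 genes for partners and processing of the proteins, 25 were detected, with a median of 30.1 TPM, against the same 61.5% detected over all protein-coding genes. The kinases Ptk2 and Ptk2b, which bind the constant tails and are held inactive by them, had 18.4, 17.9 and 17.6 TPM for Ptk2 and 10.6, 9.58 and 8.17 TPM for Ptk2b. The protease Adam10, which sheds the ectodomains, had 23.2 ± 1.6 TPM. Nckap1, a subunit of the WAVE complex that binds the alpha tail, had 96.9 ± 12.2 TPM, and Axin1, the partner of Pcdhgc3, had 5.63 ± 0.49 TPM. The receptor kinase Ret was the gene below 1 TPM, at 0.515 ± 0.045 TPM.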

How the data were processed

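The authors deposited TPM values, per the file headers, for 84660 transcript rows. Per the submitters' processing notes, mm10 was the build, and HTSeq, TopHat, Bowtie and Trimmomatic were used. Their versions were not given in the sources used here, nor was the counting of reads that fit several transcripts or places. Poly-A RNA was prepared with a strand-specific kit, per the labels' protocols. Rows were matched to GENCODE M21 (83017 matched), which gives 2 genes the symbol Pcdha11; the one at the Pcdha10 position of RefSeq GRCm38.p6 is called Pcdha10.

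Reads per row are TPM times exonic length over the value of 1 read in that library. They were whole, within 0.01, in 100% of 42156 rows with equal models and in all 57 member rows. Shared reads are the median over pairs of a long row and a single-exon row covering at least 95% of the variable exon. This measure was added after seeing the data. The steps were tested on simulated data. There each single-exon row held exactly the reads of its variable exon, so the effect of bases beyond that exon could not show. A count test across groups was not possible with 1 group.

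The log scale was log2(TPM + 1), on which low genes differ less than their ratio says. Differences were taken in each library and tested by the exact two-sided sign-flip permutation. Named members are the C-type genes, the 3 highest and 2 lowest whole rows of the alpha alternates, beta, gamma A and gamma B, and the 3 most variable detected rows; others were named after their values were seen. Members and lists were chosen with earlier results of these data known. Identity is from global alignment without end gap costs in Biopython 1.88. Other tools were Python 3.11.15, NumPy 2.4.6, pandas 2.3.3, SciPy 1.17.1 and Matplotlib 3.10.9.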

Additional observations from a re-analysis of the deposited data

Results flagged for a closer look

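Pcdhgb8, a gamma B gene that the annotation types as a polymorphic pseudogene and that is therefore no member, gave reads of its variable exon in data the comparisons did not use. Its level was 4.21 TPM in library 2, against 1.71 and 2.34 TPM in libraries 1 and 3, with a mean of 2.75 TPM, from 455 reads in library 2 and 219 and 267 reads in libraries 1 and 3. That mean lies among those of the gamma B members, and the gamma sums leave it out.

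On the opposite strand, 12 annotated genes lie within the arrays, all below 1 TPM. Those that overlap member exons number 8, all below 1 TPM, and 4 of them had more than 3 reads in every library, the limit that a count of 0 allows. These were BC037039 at a mean of 0.847 TPM, Gm10545 at 0.102 TPM, Gm26672 at 0.0842 TPM and Gm37165 at 0.0691 TPM. BC037039 had 1.07, 0.776 and 0.695 TPM in libraries 1, 2 and 3.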

How the results depend on the processing

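Of the alternative values, 308 held, which means the same sign for a difference, whatever its size, a shift within the spread between libraries for a median, and a change within 1.5 times for a count. Another 32 moved by more and 2 changed sign. Those 2 were gamma A minus gamma B, at -0.026 with rows summed, and gamma minus alpha, at -0.18 with the smallest row as the shared part; the cause of the first was not tested. A pseudocount of 0.1 gave medians of 1.17 for beta, and on variable exons 1.43 for alpha and for alpha alternates, 2.03 for gamma, 2.19 for gamma A and 1.55 for gamma B. Scaling to nuclear protein-coding genes, which shifts the median detected gene by 2.12 on the log2 scale, gave whole-row medians of 8.02 for alpha, 3.49 for beta and 8.44 for gamma, and on variable exons 3.74 for alpha and for alpha alternates, 4.32 for gamma, 4.48 for gamma A and 3.86 for gamma B. Variable exons in place of whole rows moved the medians to 1.85 for alpha and 2.32 for gamma, and alpha minus beta to 0.26 and gamma minus beta to 0.71. With the lowest pair as shared reads, gamma stood at 2.45, gamma A at 2.57 and gamma B at 2.11. Members at 1 TPM or more alone gave 1.76 for beta, and on variable exons 2.11 for alpha and 2.04 for alpha alternates. Means over members gave 1.60 for beta and 2.49 for gamma on variable exons. Detection at 5 TPM left 2 beta genes. Leaving out each library in turn gave 1.58 to 1.70 for the beta median and 2.34 to 2.43 for the gamma median of variable exons, and moved no difference across 0. No paired analysis was possible because there is 1 group. Levels near 0, as of Pcdha8 and Pcdhac1, rest on few reads.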

Other observations

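The table holds further rows for 21 of the 57 members, 30 rows in all, of which 10 are single exons. Shorter rows can stand far above the longest one without holding more of the gene. The short row of Pcdhgc4 had 145, 155 and 141 TPM, against 72.5, 77.3 and 69.0 TPM for its longest row in libraries 1, 2 and 3, yet it held only 85, 80 and 74 reads beyond the shared ones, against 1833, 1601 and 1326 reads beyond them in the longest row.

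Around and between the arrays, 13 of 16 neighbouring genes were detected, against 61.5% of all protein-coding genes. Taf7, a subunit of the general transcription factor TFIID that lies between the beta and gamma arrays on the other strand, had 6.61, 6.94 and 7.70 TPM. Slc25a2, a mitochondrial carrier gene between the same arrays, had 0.0855, 0.0338 and 0.0320 TPM. Pcdh1, a protocadherin outside the arrays, had 15.6, 15.4 and 13.0 TPM, and Pcdh12, another, had 0.0202, 0 and 0.00567 TPM.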
